A study of Rattus norvegicus with 20 samples.

Results

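The genes described here are those whose names mark them as parts of the cilium or its microtubule core, the axoneme, measured in choroid plexus tissue taken from Zucker rats, lean or obese. They were chosen by name alone: every gene identifier that the tables accompanying the study pair with a symbol starting with Cfap, Ccdc, Dnah, Dnai, Dnal, Dync2, Dynl, Ift, Tekt, Spag, Rsph, Saxo, Bbs, Ttc, Tuba or Tubb. This gave 47 of the 32883 genes in the files, out of 2616 genes that carry a symbol in those tables. None of the 47 bears a Dnai, Dnal or Bbs name. The name rule is wider than its label. Textbook roles place 25 of the 47 in a cilium. The other 22 are dynein light chains (5 genes) and tubulins (6 genes), counted here as not particular to cilia, or share only a protein motif or a name prefix with ciliary genes (11 genes). This division is not sharp, as Tubb4b, counted among the 22, enriches in axonemes. Because the tables hold only the most abundant genes and the genes listed as differentially expressed, 40 members entered by their abundance and 7 only through a list of differentially expressed genes, so that most known cilium genes, including the transcription factors that switch the programme on, are not analysed here.

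RNA was sequenced from the choroid plexus of the lateral and 4th ventricles, 1 library per rat, in 20 female rats aged 16 weeks. The untreated cohort held 6 Lean (+/fa) and 6 Obese (fa/fa) rats, and the injected cohort held 4 Lean+VEH rats (+/fa, given sesame oil) and 4 Obese+TT rats (fa/fa, given testosterone propionate under the skin, 1 mg per injection in 100 µl of the oil, 2 times a week for 4 weeks). The fa allele disables the leptin receptor, so obesity in this strain goes with lost leptin signalling, and no group of lean rats received testosterone or of obese rats sesame oil alone. Obesity and testosterone can therefore not be told apart in the injected cohort, and injection cannot be told apart from cohort between the untreated and injected rats.

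The choroid plexus is a sheet of epithelium around a vascular stroma that secretes cerebrospinal fluid into the ventricles. Its epithelial cells carry tufts of cilia on the surface that faces the fluid, and the neighbouring ependymal cells carry beating motile cilia. An axoneme is built of doublet microtubules around a central pair. Dynein arms slide the doublets past each other, radial spokes and nexin links hold and regulate that sliding, and intraflagellar transport carries the building blocks from the cell body to the ciliary tip and back.

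All 12 epithelial markers looked for were detected in every group, and their summed level lay between 272010 and 401703 TPM (transcripts per 1000000) per rat, most of it from Ttr (transthyretin), which took 31.2 to 39.3% of the TPM of an untreated rat and 25.8 to 30.5% of an injected one. Since TPM are shares of a fixed total, a high Ttr share lowers all other genes: the untreated rats 6 and 10 had the highest Ttr shares (39.0% and 39.3%) and the lowest summed TPM of the 47 genes (4351 and 4380). Over all rats the 47 genes took 0.435 to 0.566% of the TPM. The injected rats differed from the untreated ones in more than Ttr. The mean effective length, weighted by TPM, was 820 to 902 bases in the untreated and 1005 to 1086 bases in the injected libraries. Effective length depends on the fragments of a library as well as on its transcripts. Markers of stroma were low in the injected cohort (values beside the comparison of the cohorts). Read counts were not used here, so the depth behind each value is unknown and no counting interval can be given.

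The most abundant of the 47 genes was Tubb4b, the beta tubulin that enriches in axonemes, with a mean of 455 ± 51.0 TPM (SD, n = 6) in the Lean and 664 ± 26.6 TPM (SD, n = 4) in the Obese+TT rats. It was followed in the Lean rats by Dynlrb1, a light chain shared by the cytoplasmic dyneins (404 ± 31.2 TPM), and in the Obese+TT rats by the alpha tubulin Tuba1b, with 464 to 506 TPM. TPM are scaled by transcript length and can be compared between genes. Reads of near-identical tubulin genes can be split between them, so the levels of single tubulins are uncertain.

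Among the genes with a ciliary role, each structure had at least 1 well-expressed member. Of the spoke, central pair and nexin group, the radial spoke protein Rsph9 had the highest level, with 279 ± 25.7 TPM in the Lean rats. Cfap300, needed to assemble dynein arms, followed with 249 ± 19.7 TPM, and Cfap126 (also known as Flattop), a protein of the doublet microtubules, with 225 ± 18.7 TPM. Cfap36, which has a role in ciliary traffic, stood at 202 ± 14.3 TPM. Ttc30b, the most abundant member of the transport group, had 65.4 ± 7.08 TPM in the same 6 rats. The lowest levels belonged to genes that entered only through a list of differentially expressed genes: Dnah6, a heavy chain of the inner dynein arm, with 0.352 ± 0.102 TPM, and Ccdc184, with 1.33 ± 0.561 TPM. These levels lie close to the pseudocount of 0.1 TPM used on the log scale, which makes the fold change of Dnah6 smaller than its ratio of TPM.

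**Figure D1:**
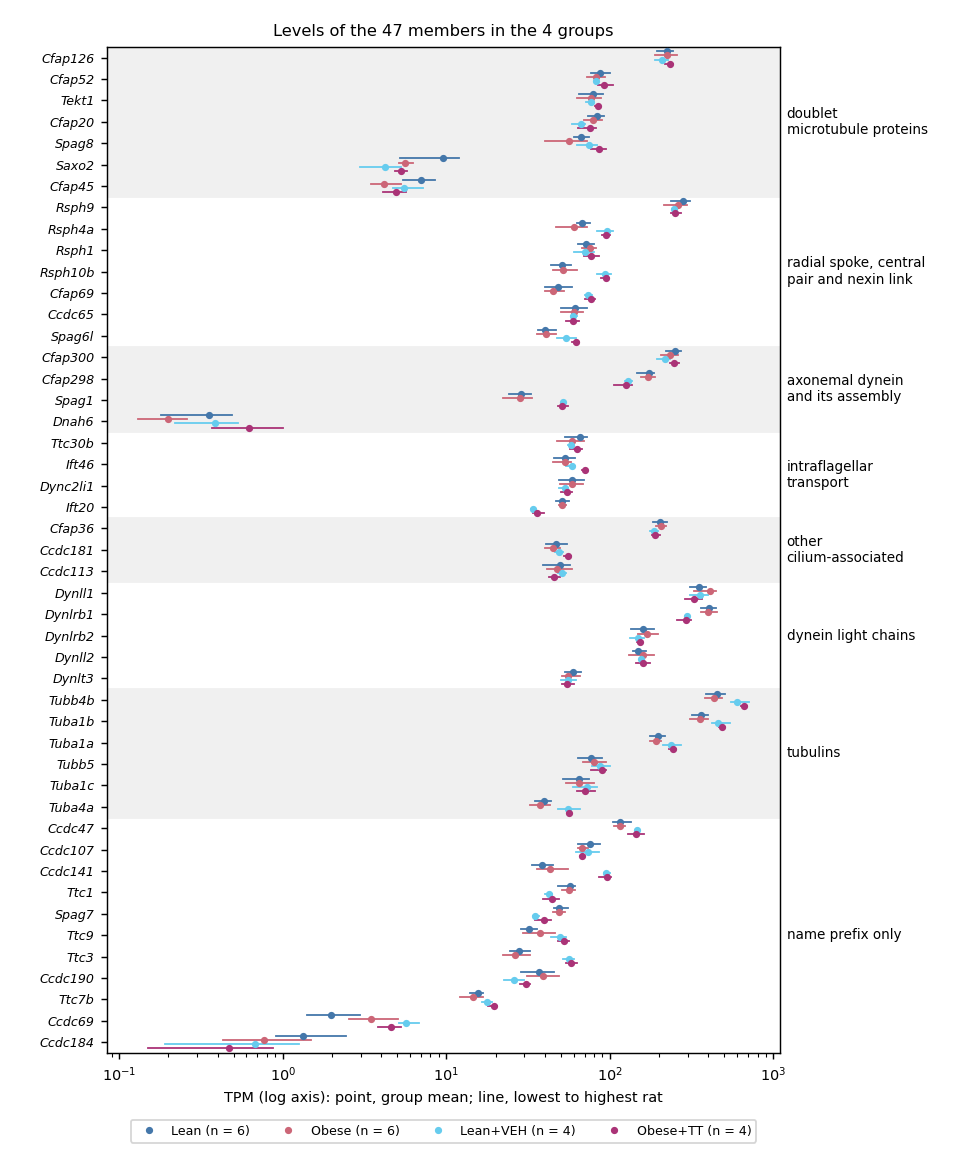
Levels of the 47 genes, grouped by role, on a logarithmic TPM axis. Points are group means (n = 6 Lean, 6 Obese, 4 Lean+VEH, 4 Obese+TT) and lines run from the lowest to the highest rat. Most genes sit above 10 TPM, and the means of Dnah6, Ccdc184, Ccdc69, Saxo2 and Cfap45 lie below it in every group.

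Promoters were looked up to see what the genes share beyond their names. RefSeq promoters of the rat assembly GRCr8, each covering 250 bases before and 50 after a transcription start, were found for 37 of the 47 genes (41 promoters). The X-box, bound by the RFX factors of ciliated cells, is built of 2 inverted half-sites, each reading GTTGCC in one direction and GGCAAC in the other. A half-site on either strand was present in 11 of 24 promoters of the genes with a ciliary role (45.8%), in 3 of 17 promoters of the other members (17.6%) and in 4087 of all 33469 promoters of the table (12.2%). An inverted pair of half-sites 0 to 3 bases apart, which contains the half-site by construction, occurred in 0.245% of all promoters and among the 47 genes in Cfap298 alone, where it was found at 2 places. The forkhead motif TGTTTAC was present on either strand in 3.78% of all promoters and among the members in Cfap20. These are letter matches, given with no test, and the base composition of the promoters was not compared. The windows below are a selection from genes that return in the comparisons: Cfap298 carries the paired sites, and Tekt1, Ccdc181, Spag6l, Cfap69 and Cfap20 carry a half-site upstream of the start. Other genes that return also carry a half-site and are not shown: Ccdc113, Dynll1 and Ccdc184 upstream of the start, Spag8 at the start, and Ift20, Cfap36 and Ccdc141 after it. Ccdc181 has another half-site after its start, which is not shown. Capitals mark the matched motif, read 5′ to 3′ on the strand of the gene, and the coordinates give the printed window in GRCr8.
Cfap298, upstream pair (chr11:43677580-43677632, minus strand): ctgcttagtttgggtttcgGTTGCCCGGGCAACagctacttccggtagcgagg
Cfap298, pair nearer the start (chr11:43677440-43677494, minus strand): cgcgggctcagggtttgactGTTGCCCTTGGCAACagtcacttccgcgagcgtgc
Tekt1 (chr10:57479135-57479180, minus strand): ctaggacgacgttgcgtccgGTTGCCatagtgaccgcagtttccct
Ccdc181 (chr13:79157481-79157526, plus strand): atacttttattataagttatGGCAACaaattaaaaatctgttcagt
Spag6l (chr11:97677756-97677801, plus strand): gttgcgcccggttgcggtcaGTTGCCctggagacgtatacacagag
Cfap69 (chr4:29367580-29367625, plus strand): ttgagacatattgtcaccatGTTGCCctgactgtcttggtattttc
Cfap20, half-site (chr19:9614807-9614852, plus strand): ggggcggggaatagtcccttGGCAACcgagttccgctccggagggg
Cfap20, forkhead motif (chr19:9614728-9614764, plus strand): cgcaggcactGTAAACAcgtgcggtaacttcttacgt

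Obesity without treatment was addressed by the 6 Obese and 6 Lean rats. No member passed the threshold: limma on log2(TPM + 0.1) with Benjamini-Hochberg adjustment called 0 of 15176 genes (0.0%) at an adjusted p under 0.05. At an unadjusted p under 0.05 it held 1466 of those genes (9.66%), and 3 of the 42 members that this contrast had not helped to choose: 2 higher, against 5.91% of all genes, and 1 lower, against 3.75%. In the fit of all 20 libraries 3 genes were called, none of them a member. The median log2 fold change was -0.02 over the 47 members and 0.02 over all genes tested, and 32 of the 47 members had a negative value. Among markers of other cells, 4 erythroid genes summed to a median of 3950 TPM in the Lean and 5406 TPM in the Obese rats. Of these, Hba-a1, Hba-a2 and Hbb were under an unadjusted p of 0.05 by limma. Slc4a1 was not tested, because it stands in the study's list for this contrast. Gja1 and Vim summed to 52.6 and 68.8 TPM, with log2 fold changes of -0.07 for Gja1 and 0.42 for Vim. Vim stands in the same list, so its value is a description. The part of these other cells in the members' values was not tested. In bulk tissue, fewer cells of a type and less RNA per cell cannot be told apart.

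In all, 5 members stood in the study's list of differentially expressed genes for this contrast: 3 with a ciliary role, the dynein light chain Dynll1 and Ccdc184, a gene of little-known function. That list was made on these same rats, so their values here are a description with no test. Cfap45, which sits inside the doublet microtubules, ranged from 5.44 to 8.50 TPM in the Lean rats (median 7.08) and from 3.46 to 5.32 TPM in the Obese rats (median 3.68). It was the one member whose groups did not overlap, with a log2 fold change of -0.74 (SE 0.15). Among all genes, 0.244% lay entirely lower in the Obese rats.

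Saxo2, a microtubule-binding protein of axonemes, ranged from 5.24 to 12.0 TPM in the Lean rats (median 10.7) and from 5.17 to 6.26 TPM in the Obese rats (median 5.52), with a log2 fold change of -0.72 (SE 0.17). The groups overlapped through Lean rat 6, at 5.24 TPM, while 4 of the other Lean rats lay above 10.7 TPM. Dnah6 ranged from 0.18 to 0.49 TPM (median 0.345) in the Lean and from 0.13 to 0.26 TPM (median 0.205) in the Obese rats, with a log2 fold change of -0.58 (SE 0.24). Ccdc184 ranged from 0.91 to 2.44 TPM in the Lean and from 0.43 to 1.48 TPM in the Obese rats, with -0.73 (SE 0.26). In contrast to these, Dynll1, a light chain that many motors and other complexes share, had a positive log2 fold change of 0.22 (SE 0.08), from 349 ± 33.7 TPM in the Lean to 407 ± 43.1 TPM in the Obese rats. Dynll1 is the only one of the 5 that is also among the abundant genes.

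The 3 members under an unadjusted p of 0.05 have no known axonemal role. Ccdc69, which acts on the spindle midzone in dividing cells, ranged from 1.40 to 2.95 TPM (median 1.74) in the Lean and from 2.53 to 5.04 TPM (median 3.09) in the Obese rats. This gave a log2 fold change of 0.80 (SE 0.21, unadjusted p = 0.00211, adjusted p = 0.28 by limma), and an exact two-sided permutation test over the 12 rats gave p = 0.0152, where the smallest possible is 0.00216. The groups overlapped. Ttc9 had a log2 fold change of 0.22 (adjusted p = 0.514) and Ccdc107 of -0.15 (adjusted p = 0.509).

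By structure, the 7 doublet microtubule genes all had negative log2 fold changes in the Obese rats, from -0.74 for Cfap45 to -0.01 for Cfap126, but Cfap45 and Saxo2 were chosen on this contrast. The 5 others had a median of -0.08. The 4 genes of axonemal dynein and its assembly were also all negative, with a median of -0.03 over the 3 left without Dnah6, which was chosen here as well. Spag8, a doublet protein, had the largest of these values outside the list, -0.27 (SE 0.14, adjusted p = 0.586), and its Obese rats were spread from 39.9 to 72.3 TPM against 60.1 to 74.7 TPM in the Lean rats. The spoke, central pair and nexin genes were divided into 3 positive and 4 negative (median -0.02), the transport genes into 1 and 3 (median -0.01) and the tubulins into 2 and 4 (median -0.03). The count of negative values among the 25 ciliary genes, 20, moved between 13 and 22 when single rats were left out, and was 13 without Obese rat 7, which had the lowest summed TPM of these genes (1830).

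**Figure D2:**
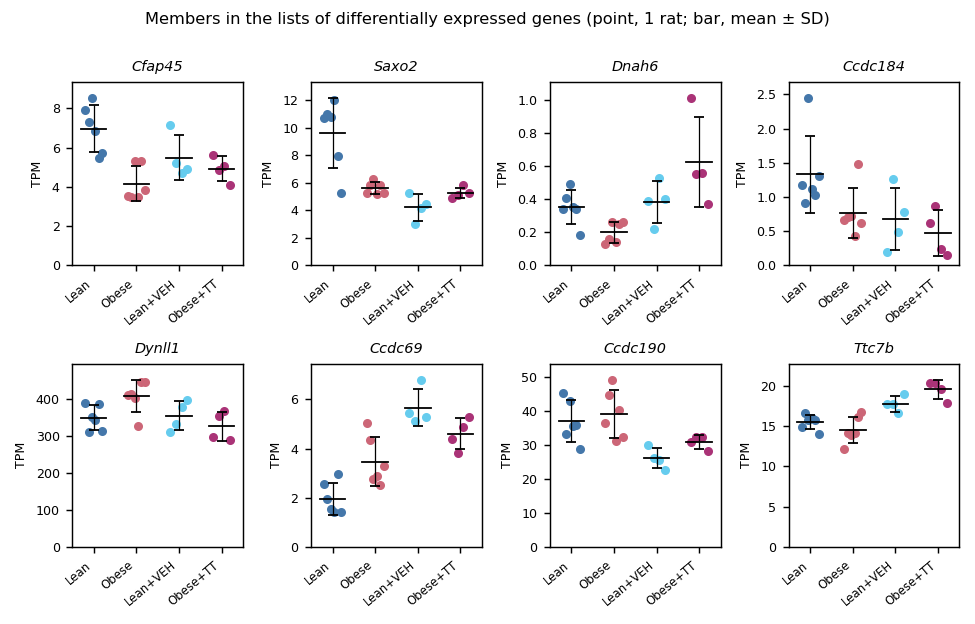
TPM per rat of the 8 genes that stand in a list of differentially expressed genes. Each point is 1 rat, and bars give the mean ± SD (n = 6, 6, 4 and 4). Cfap45 separates the Lean from the Obese rats without overlap, and the Lean rats' high Saxo2 is not seen in the Lean+VEH rats, which range from 2.96 to 5.25 TPM.

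Obesity with testosterone was addressed by the 4 Obese+TT and 4 Lean+VEH rats. Here the ciliary genes leaned to higher values in the Obese+TT rats, though again no gene was called: 0 of 15259 (0.0%) had an adjusted p under 0.05 by limma with Benjamini-Hochberg adjustment, and 1134 (7.43%) an unadjusted p under 0.05. Of the 44 members not chosen on this contrast, 8 were higher at an unadjusted p under 0.05, against 4.25% of all genes in that direction, and 1 was lower, against 3.19%. All 9 belonged to the 25 genes with a ciliary role, a division that is not sharp and was made with earlier results of these data known. The median log2 fold change was 0.11 over those 25 genes, 0.03 over the 22 other members and 0.01 over all genes tested, and 19 of the 25 were positive. The number of members under an unadjusted p of 0.05 was fragile. It lay between 3 and 10 when single rats were left out (3 without Obese+TT rat 18 or 19, 4 without Lean+VEH rat 14 or Obese+TT rat 17), was 3 with TPM rescaled without Ttr, and was 2 without the trend in the variance.

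In 3 members the groups did not overlap, all higher in the Obese+TT rats. Among all genes tested 4.02% had non-overlapping groups, 2.37% higher and 1.66% lower. The clearest was Ift46, a subunit of the transport complex that carries cargo to the ciliary tip. It stood at 58.3, 54.2, 61.1 and 61.1 TPM in the Lean+VEH rats and at 69.3, 70.5, 72.8 and 67.4 TPM in the Obese+TT rats. The lowest Obese+TT rat thus lay above the highest Lean+VEH rat. The log2 fold change was 0.26 (SE 0.06, unadjusted p = 0.00123, adjusted p = 0.385 by limma), and the exact two-sided permutation p was 0.0286, the smallest that 4 against 4 rats allow. Groups without overlap always give this p, so it restates the separation by which the gene was picked and adds no test.

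Ccdc181, a microtubule-binding protein of motile cilia, stood at 49.9, 49.1, 51.5 and 46.4 TPM in the Lean+VEH and at 55.3, 58.2, 52.5 and 55.2 TPM in the Obese+TT rats. Its log2 fold change was 0.17 (SE 0.06, adjusted p = 0.593 by limma). Tekt1, a tektin filament protein of the doublets, stood at 71.6, 77.8, 78.2 and 80.0 TPM in the Lean+VEH and at 85.2, 86.5, 84.3 and 80.8 TPM in the Obese+TT rats. Its log2 fold change was 0.13 (SE 0.05, adjusted p = 0.642), and the gap between the groups was under 1 TPM. For both genes the exact permutation p was again 0.0286, which only restates that their groups did not overlap. In the untreated cohort the same 3 genes had log2 fold changes of -0.01 (Ift46), -0.06 (Ccdc181) and -0.04 (Tekt1).

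The other higher members at an unadjusted p under 0.05 came from 3 structures, and all of them overlapped between the groups. From the doublets these were Spag8 (74.3 ± 8.67 TPM in the Lean+VEH and 86.3 ± 7.05 TPM in the Obese+TT rats, log2 fold change 0.22, SE 0.09), Cfap126 (0.17, SE 0.07) and Cfap52 (0.16, SE 0.07). The central pair gene Spag6l had 0.20 (SE 0.08) and the dynein assembly gene Cfap300 0.17 (SE 0.07). Their adjusted p lay between 0.632 for Cfap300 and 0.668 for Cfap52 and Spag8. In the opposite direction, Ccdc113, a protein of the ciliary base and axoneme, went from 51.0 ± 2.36 TPM in the Lean+VEH to 45.7 ± 2.85 TPM in the Obese+TT rats (-0.16, SE 0.06, adjusted p = 0.64).

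**Figure D3:**
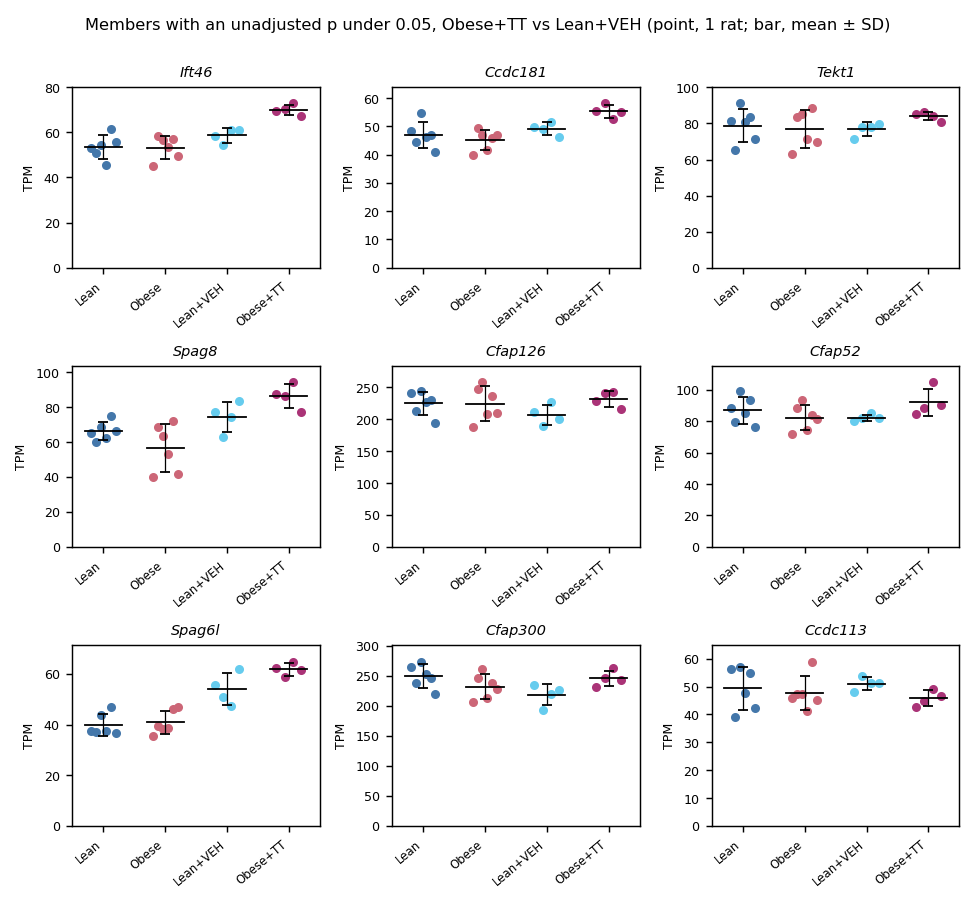
TPM per rat of the 9 members with an unadjusted p under 0.05 between Obese+TT and Lean+VEH rats. Each point is 1 rat, and bars give the mean ± SD (n = 6, 6, 4 and 4). The Obese+TT rats lie above every Lean+VEH rat for Ift46, Ccdc181 and Tekt1, and the groups overlap for the other 6.

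By structure, 6 of 7 doublet genes were positive (median 0.17, the exception being Cfap45 with -0.14), as were all 4 transport genes (median 0.09) and 5 of 7 spoke, central pair and nexin genes (median 0.04). The 4 genes of axonemal dynein and its assembly were divided into 2 positive and 2 negative (median 0.07). Dynein light chains were divided into 2 positive and 3 negative (median -0.01) and tubulins into 5 and 1 (median 0.04). The 12 epithelial markers had a median of 0.03 in this contrast. Markers of other cells are given beside these values. The summed level of the 3 mural genes Rgs5, Tagln and Myh11 was 13.7 to 21.7 TPM in the Lean+VEH and 9.70 to 11.7 TPM in the Obese+TT rats, and that of Gja1 and Vim, both found in ependyma and in stroma, was 6.86 to 13.1 and 12.2 to 18.0 TPM. Myh11 and Gja1 stand in the study's list of differentially expressed genes for this contrast, as does the erythroid gene Slc4a1. The sums that hold them include values that chose them and are a description. Among the ependymal markers looked for, 2 of 9 carry a symbol here, and the genes that define motile ciliated cells are not among them. The levels of 4 erythroid genes summed to 2168 to 5768 TPM in the Lean+VEH and 4799 to 8388 TPM in the Obese+TT rats. The part of these other cells in the members' values was not tested.

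Another 3 members stood in the study's list for this contrast, none with a known ciliary role, and their values are again a description. Ccdc190 went from 26.0 ± 2.98 TPM in the Lean+VEH to 30.9 ± 1.97 TPM in the Obese+TT rats (log2 fold change 0.25, SE 0.09). Ttc7b, part of a complex that makes a phosphoinositide lipid at the plasma membrane, went from 17.8 ± 0.993 to 19.6 ± 1.14 TPM (0.14, SE 0.07). Ccdc69 had the opposite sign, with 5.44, 5.12, 6.78 and 5.29 TPM in the Lean+VEH and 4.40, 3.83, 4.87 and 5.29 TPM in the Obese+TT rats (-0.29, SE 0.14). The groups overlapped for all 3.

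The ciliary genes listed in the untreated cohort could be tested in the injected one, which shares no library with it. None of them had an unadjusted p under 0.05 there. Cfap45 had a log2 fold change of -0.14 (SE 0.16, adjusted p = 0.865 by limma), with 4.70 to 7.16 TPM in the Lean+VEH and 4.10 to 5.64 TPM in the Obese+TT rats. Saxo2 had 0.34 (SE 0.17, adjusted p = 0.693), with 5.25, 2.96, 4.12 and 4.44 TPM against 4.88, 5.13, 5.79 and 5.21 TPM. Dnah6 had 0.54 (SE 0.35, adjusted p = 0.765), and its Obese+TT rats had 0.623 ± 0.273 TPM (SD, n = 4). The sign was thus the same in both cohorts for Cfap45 and opposite for Saxo2 and Dnah6. For the pair outside the ciliary genes, Ccdc184 had -0.44 (SE 0.57) and Dynll1 -0.12 (SE 0.10).

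**Figure D4:**
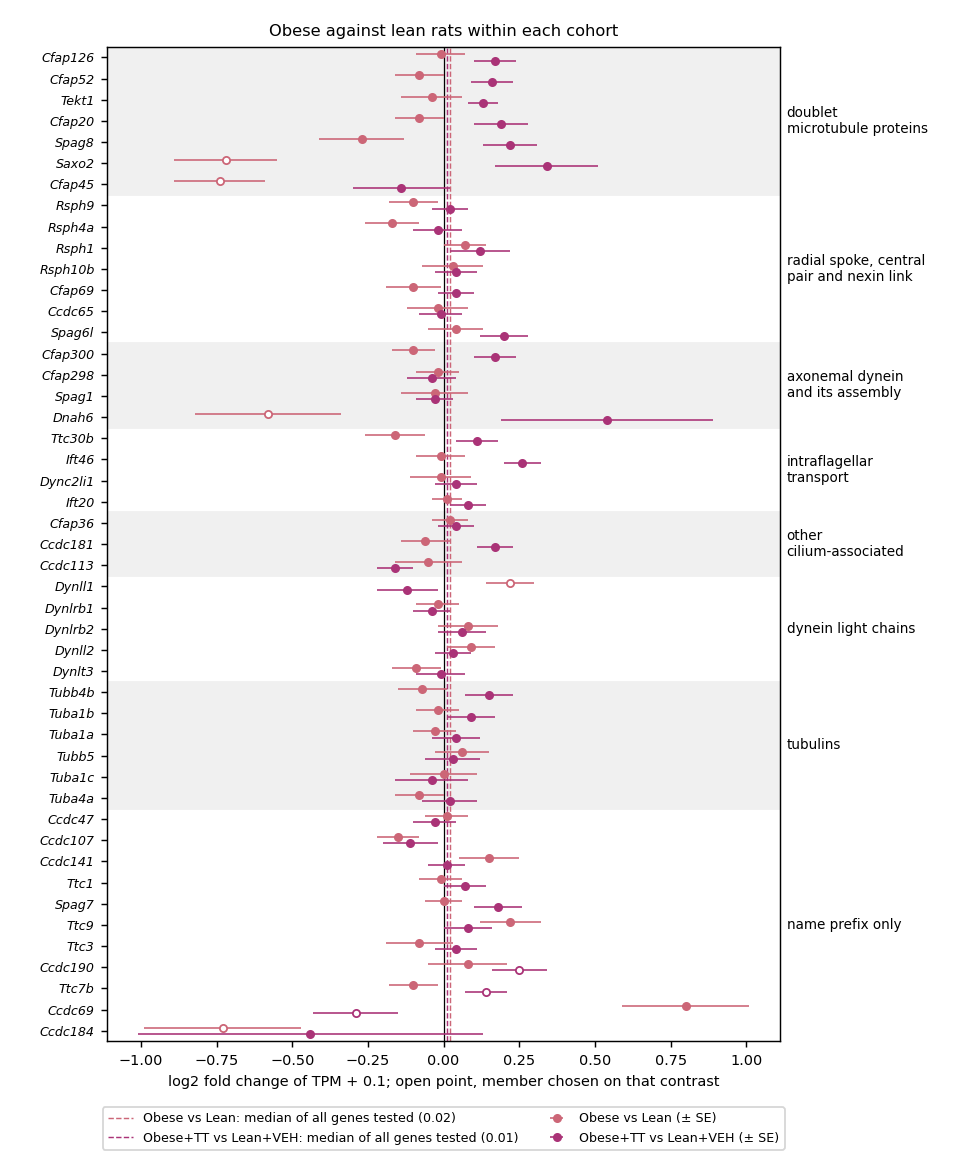
Log2 fold changes of TPM + 0.1 with standard errors for the 47 genes, obese against lean rats, in the untreated cohort (Obese vs Lean, n = 6 and 6) and the injected cohort (Obese+TT vs Lean+VEH, n = 4 and 4), by role. Open points are members chosen on that contrast, and dashed lines mark the median of all genes tested. Doublet microtubule genes sit left of 0 in the untreated cohort and, apart from Cfap45, right of 0 in the injected one.

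Whether the contrast differed between the cohorts was tested as an interaction over the 20 rats. No gene was called: 0 of 15406 (0.0%) had an adjusted p under 0.05 by limma with Benjamini-Hochberg adjustment, and 1288 (8.36%) an unadjusted p under 0.05. Of the 39 members in neither list of differentially expressed genes, 5 had an unadjusted p under 0.05, all more positive in the injected cohort, against 3.79% of all genes in that direction and 4.57% in the other. They were Spag8 (difference of log2 fold changes 0.49, SE 0.20, adjusted p = 0.532), Cfap300 (0.28, SE 0.10, adjusted p = 0.492), Cfap20, a doublet protein (0.28, SE 0.12, adjusted p = 0.565), Ift46 (0.26, SE 0.11, adjusted p = 0.542) and Ccdc181 (0.23, SE 0.10, adjusted p = 0.569). All of these have a ciliary role. Over all 47 members the number under an unadjusted p of 0.05 was 11 and lay between 7 and 14 when single rats were left out. No member was called in those fits, though 14 genes were without Lean+VEH rat 13, and 10 with TPM rescaled without Ttr.

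Among the 22 ciliary genes in neither list, the difference was positive for 19 and had a median of 0.15, against -0.01 over all genes tested. The exceptions were Ccdc113, Cfap298 and Spag1, with -0.11, -0.02 and a value that rounds to 0. The differences of the genes chosen on one of the contrasts were larger, but they include the values that chose them: 1.13 (SE 0.38) for Dnah6, 1.06 (SE 0.26) for Saxo2, 0.59 (SE 0.23) for Cfap45, -0.34 (SE 0.14) for Dynll1 and -1.10 (SE 0.30) for Ccdc69. For Saxo2 the difference rested on the lean rats of both cohorts, with means of 9.59 ± 2.52 TPM in the Lean and 4.19 ± 0.949 TPM in the Lean+VEH rats, while the Obese and Obese+TT rats had 5.60 ± 0.439 and 5.25 ± 0.385 TPM. The means of Dnah6 were 0.352, 0.200, 0.385 and 0.623 TPM in Lean, Obese, Lean+VEH and Obese+TT rats. Those of Ccdc69 were 3.47, 5.66 and 4.60 TPM in Obese, Lean+VEH and Obese+TT rats, all above the highest Lean rat at 2.95 TPM.

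Other genes of the cilium were examined by the same fits. Of 85 further axoneme genes looked for, 8 carry a symbol here, and of 44 further genes of intraflagellar transport and the BBSome 3 do (Arl6, Lztfl1 and Wdr35). None was called within a cohort. Of the 8 axoneme genes, 2 were positive and 6 negative in the untreated cohort and 6 positive and 2 negative in the injected one. Between the cohorts all 8 were positive on the TPM scale and 7 were called higher in each comparison (medians 0.32 and 0.48), where 41.7% of all genes were called higher. These 8 carry a symbol through their abundance, which can favour a direction between the cohorts. Their values under other scalings are not given here. The genes named next are those with the smallest p within a cohort. Mns1, which helps to build the inside of the doublets, had log2 fold changes of -0.23 (SE 0.09, adjusted p = 0.407) in the untreated and 0.17 (SE 0.07, adjusted p = 0.668) in the injected cohort, and a difference of 0.41 (SE 0.13, adjusted p = 0.388). Lrrc23, a radial spoke protein, had -0.27 (SE 0.07, adjusted p = 0.255) and -0.12 (SE 0.07, adjusted p = 0.753). Zmynd10, a dynein assembly factor, had -0.03 and 0.16 (SE 0.07, adjusted p = 0.662). The retrograde transport gene Wdr35 had -0.06 and 0.13 (SE 0.05, adjusted p = 0.624), and its Obese+TT rats lay entirely above the Lean+VEH rats.

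The injected rats were also set against the untreated ones of the same phenotype. Here values depended on the scaling. The median over all genes tested was 0.24 for Lean+VEH vs Lean and 0.25 for Obese+TT vs Obese on the TPM scale, and -0.05 and -0.04 with median ratio size factors. Among genes whose mean reached 40 TPM, as it did for most members, the medians on the TPM scale were 0.02 and 0.05. The fold changes below are as fitted, with none of these shifts subtracted. Limma called 8925 of 15326 genes (58.2%) and 8941 of 15389 (58.1%) in these comparisons at an adjusted p under 0.05, and 62.5% and 62.3% were under an unadjusted p of 0.05. Of the 47 members 25 were called in each: 15 higher and 10 lower in Lean+VEH, and 18 higher and 7 lower in Obese+TT rats. The split depended on the scaling and turned, to 9 higher and 27 lower and to 11 higher and 21 lower with size factors, to 13 and 18 and to 17 and 15 with TPM rescaled without Ttr, and to 9 and 26 and to 11 and 20 with FPKM. The members' share of calls, 53.2% in both comparisons on the TPM scale, lay below that of all genes. With size factors it was 76.6% and 68.1%, against 59.3% and 57.4% of all genes, and it lay above that of all genes without Ttr and with FPKM too. Members chosen by their abundance in 1 cohort alone bear on this comparison: all 6 that entered only through the abundant genes of the injected cohort (Ccdc141, Spag1, Spag6l, Ttc3, Ttc9 and Tuba4a) were higher there. Of the 4 that entered only through the abundant genes of the untreated cohort, Ift20, Spag7 and Ttc1 were called lower in the injected rats and Rsph4a higher. The way these 10 were chosen favours such directions, so the values of the 9 that follow it are a description. Among the 30 members abundant in both cohorts, 10 were called in Lean+VEH (6 higher, 4 lower) and 12 in Obese+TT rats (9 higher, 3 lower) on the TPM scale. This split turned with the scaling as well. With size factors more of the 30 were called lower than higher in both comparisons.

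Together 13 members were called in the same direction in both comparisons and under each of the 4 scalings (TPM, TPM rescaled without Ttr, size factors and FPKM), where 35.0% of all genes tested met the same rule (22.2% higher, 12.8% lower). Higher in the injected rats were the spoke genes Rsph10b and Rsph4a, the central pair gene Cfap69, the dynein assembly gene Spag1, the alpha tubulin Tuba4a, and Ttc3 and Ccdc141. Lower were the transport gene Ift20, the dynein assembly gene Cfap298, Dynlrb1, Ttc1, Spag7 and Ccdc190. Only Rsph10b, Cfap69, Cfap298 and Dynlrb1 of these 13 stand in the lists of abundant genes of both cohorts. Rsph4a is missing from the list of the injected cohort, though its Lean+VEH mean was 96.1 TPM. Ccdc141, Spag1, Ttc3 and Tuba4a (higher) and Ift20, Spag7 and Ttc1 (lower) moved in the direction favoured by the way they were chosen. The count of 13 includes them, so it is a description and cannot be weighed against the 35.0%.

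Rsph10b, a radial spoke protein, ranged from 43.7 to 57.9 TPM in the Lean (median 49.4) and from 44.9 to 62.7 TPM in the Obese rats (median 48.4). It stood at 98.9, 83.5, 87.2 and 102 TPM in the Lean+VEH and at 94.6, 88.4, 98.2 and 98.7 TPM in the Obese+TT rats. No injected rat overlapped an untreated one of its phenotype, as in 44.8% of all genes in Lean+VEH vs Lean (34.0% higher) and 45.8% in Obese+TT vs Obese (34.1% higher). The log2 fold changes were 0.87 (SE 0.09, adjusted p = 5.42e-06) and 0.88 (SE 0.10, adjusted p = 1.61e-05) by limma. With size factors they were 0.57 and 0.59.

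Rsph4a, of the spoke head, had 0.50 and 0.65, and Cfap69 0.62 and 0.76. With size factors these became 0.19 and 0.35 for Rsph4a and 0.31 and 0.47 for Cfap69. Spag1 had 0.87 in both comparisons, from 28.6 ± 3.58 to 51.9 ± 0.847 TPM in the lean and from a mean of 28.1 to one of 50.8 TPM in the obese rats, but it is one of the genes chosen by abundance in the injected cohort. Within the same structures, Rsph1 and Ccdc65, a nexin link protein, had values from -0.03 to 0.02 on the TPM scale and were not called. With size factors both were called lower, Rsph1 with -0.34 and -0.27 and Ccdc65 with -0.34 and -0.31.

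Ift20, which links the transport machinery to the Golgi apparatus, ranged from 46.7 to 56.4 TPM in the Lean (median 50.1) and from 49.2 to 53.6 TPM in the Obese rats (median 51.2). It stood at 35.1, 33.7, 33.8 and 32.9 TPM in the Lean+VEH and at 34.6, 35.1, 39.6 and 33.9 TPM in the Obese+TT rats, below every untreated rat. Its log2 fold changes were -0.58 (SE 0.06) and -0.52 (SE 0.06), given with no test because it was chosen by its abundance in the untreated cohort alone. Ift46, of the same complex, had 0.14 (adjusted p = 0.16) and 0.40 (SE 0.08, adjusted p = 0.000764), which became -0.17 and 0.10 with size factors, not called. Cfap298, whose promoter carries the inverted half-sites, went from 174 ± 14.8 to 129 ± 6.53 TPM in lean and from 171 ± 16.3 to 125 ± 13.1 TPM in obese rats (-0.43, SE 0.07 and -0.45, SE 0.09). Dynlrb1 went from 404 ± 31.2 to 298 ± 5.81 TPM and from 398 ± 37.6 to 290 ± 23.7 TPM (-0.44, SE 0.06 and -0.45, SE 0.08).

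All 6 tubulins had positive values on the TPM scale in both comparisons, from 0.13 to 0.62, and Tuba4a, Tubb4b, Tuba1b and Tuba1a were called in both. With size factors, Tuba4a kept its call in both (0.18 and 0.29) and Tubb4b and Tuba1b in Obese+TT vs Obese only (0.33 and 0.14). Tuba4a was chosen by its abundance in the injected cohort alone, so its values are a description. The groups being compared differ in makeup and effective length as well. The 3 fibroblast markers summed to 108 to 153 TPM in the untreated and 8.47 to 17.0 TPM in the injected rats, and the 3 mural markers to 142 to 244 and 9.70 to 21.7 TPM. Gja1 and Vim, found in ependyma and in stroma, summed to 47.8 to 90.5 and 6.86 to 18.0 TPM. Both were called lower in both comparisons, Vim with log2 fold changes of -2.43 and -2.56 and Gja1 with -1.74 and -0.9. The endothelial marker Plvap was also called lower (-3.41 and -3.43), and the neuronal marker Map2 higher (1.44 and 1.47). Of 12 epithelial markers, 9 were called higher in Lean+VEH than in Lean rats. In Obese+TT vs Obese, 7 were called higher and 1 lower. Among all genes, 41.7% were called higher in each comparison. Ttr, most of the epithelial sum, lay entirely lower in the injected rats in both. The part of cell makeup and of effective length in the members' values was not tested.

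**Figure D5:**
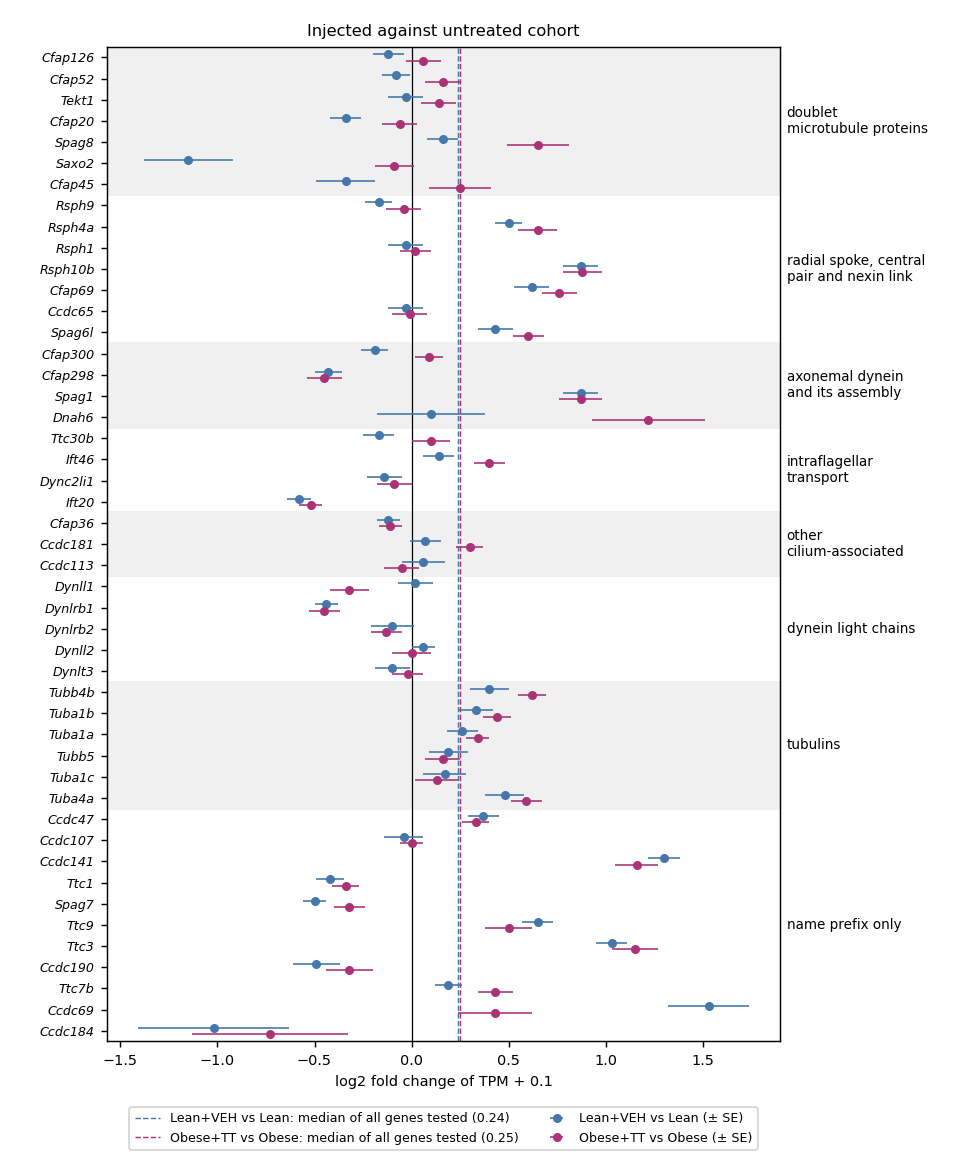
Log2 fold changes of TPM + 0.1 with standard errors for the 47 genes, injected against untreated rats, in lean (Lean+VEH vs Lean, n = 4 and 6) and obese animals (Obese+TT vs Obese, n = 4 and 6), by role. Dashed lines mark the median of all genes tested (0.24 and 0.25). Rsph10b, Cfap69, Rsph4a and Spag1 lie right of these lines in both comparisons, and Ift20, Cfap298 and Dynlrb1 left of 0.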

How the data were processed

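Total RNA from the choroid plexus of 20 rats was sequenced as paired 150 base reads. The authors mapped them with STAR 2.7.9a to Rnor_6.0 (rn6, Ensembl 104), and the submitters' processing notes also name RSEM 1.3.3 and DESeq2 3.16. The deposited files give TPM and FPKM for 32883 genes per rat, with length and depth divided out by the authors, so no counts were used and depth is unknown. TPM were analysed as log2(TPM + 0.1) in limma 3.58.1 (R 4.3.3) keeping genes whose mean reached 0.1 TPM, with a trend in eBayes, on the groups of 1 comparison, with Benjamini-Hochberg adjustment over all genes tested and a threshold of 0.05. The difference between the contrasts used all 20 rats. All 47 members passed the filter in each comparison. Single members were also compared by exact permutation tests. The fit was tested on simulated data. FPKM in place of TPM, other scalings, filters and pseudocounts, and leaving out each rat were tried as alternatives. Rats of 1 group were separate animals, and no 2 libraries of a group were duplicates.

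Members, roles and gene lists were chosen with earlier results of these data known. Members described singly are those in the study's lists of differentially expressed genes, up to 10 per contrast with non-overlapping groups, and the most abundant member of each role. Genes named beyond these were chosen after their values were seen. A member listed on a contrast was not tested in it. Symbols come from the tables accompanying the study, which are shortened here, so overlaps and enrichment were not tested. Of 16 multiciliation regulators none carries a symbol there. Columns of the authors' own comparisons were not used. Python 3.11.15, pandas 2.3.3, scipy 1.17.1 and matplotlib 3.10.9 were used for the rest.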

Additional observations from a re-analysis of the deposited data

Results flagged for a closer look

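In 80 groups of 4 or 6 rats checked, over the named members and the summed TPM of the members, 3 held a rat set apart from the others of its group, where chance gives about 4. Ccdc184 stood at 2.44 TPM in Lean rat 3, against 0.91 to 1.31 TPM in the other Lean rats. It stood at 1.48 TPM in Obese rat 11, against 0.43 to 0.72 TPM in the other Obese rats. Tubb4b stood at 713 TPM in Lean+VEH rat 16, against 550 to 573 TPM in the other Lean+VEH rats. The log2 fold change of Ccdc184 between Obese and Lean rats lay between -0.92 and -0.55 when single rats were left out, and that of Tubb4b between Obese+TT and Lean+VEH rats between 0.11 and 0.23. No member differed between the cohorts' contrasts past the threshold.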

How the results depend on the processing

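No paired analysis was possible because the rats carry the numbers 1 to 20, each used once, so no number is shared between groups. Within the cohorts and for the difference between them, no member was called under any alternative in the comparisons it had not been chosen on, with single rats left out included. The median log2 fold change of the members stayed within the spread between rats: -0.06 to 0.00 for Obese vs Lean, 0.02 to 0.08 for Obese+TT vs Lean+VEH and 0.06 to 0.14 for the difference when single rats were left out. Leaving out single rats gave 22 to 27 members called in Lean+VEH vs Lean (median -0.03 to 0.06) and 23 to 26 in Obese+TT vs Obese (median 0.07 to 0.15). The scaling moved the medians between cohorts. For Lean+VEH vs Lean, 0.02 became -0.09 with TPM rescaled without Ttr, -0.29 with median ratio size factors and -0.24 with FPKM. For Obese+TT vs Obese, 0.13 became -0.02, -0.16 and -0.14 in the same order. FPKM and size factors do not hold each library to a fixed total. TPM rescaled without Ttr do, and the medians moved there too. The source of these shifts was not tested. Named members with values near 0 changed sign. In Obese vs Lean, Ift46 and Cfap126 each became 0.01 with TPM rescaled without Ttr, Ccdc47 became -0.01 with size factors, and in Obese+TT vs Lean+VEH Rsph9 became -0.01 with TPM rescaled without Ttr. Leaving out single rats gave -0.05 to 0.04 for Ift46, -0.09 to 0.02 for Tekt1, -0.05 to 0.04 for Cfap126, -0.02 to 0.05 for Ccdc47 and -0.01 to 0.05 for Cfap36 in Obese vs Lean, and -0.08 to 0.03 for Ccdc47 and -0.01 to 0.05 for Rsph9 in Obese+TT vs Lean+VEH. The adjusted p of Ift46 in the latter comparison lay between 0.229 and 0.787 over its 17 alternatives. Over all genes, 0 to 25 were called in that comparison when single rats were left out, 25 of them without Lean+VEH rat 13. Depth being unknown, the values of Dnah6 and Ccdc184, near or below 1 TPM, carry the least precision.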
